A study of Mus musculus with 75 samples.

Results

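The efferent cholinergic synapse of cochlear outer hair cells (OHCs) was followed through 5 genes, Chrna9, Chrna10, Kcnn2, Rapsn and Musk. They were chosen by name from the 55291 genes of the count table for their known place in this synapse. Earlier results of these data were known at that choice. Single cells had been picked by hand from mouse cochleae of the C57BL/6 strain and sequenced with a Smart-Seq kit, which counts reads over whole transcripts and carries no molecular identifiers. The 75 cells fell into 5 groups, and the question addressed was how far supporting cells (SCs) made to express Atoh1 and Ikzf2 had acquired the postsynaptic genes of adult OHCs.

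The first group held 17 wild-type OHCs at postnatal day 30 (WT_P30 OHCs), labelled by the Ai9 Tdtomato reporter through a CreER inserted at the prestin gene Slc26a5, with tamoxifen on days 20 and 21. The second held 16 wild-type SCs, mainly pillar and Deiters' cells, at postnatal day 60 (WT_P60 SCs), labelled by the same reporter through the Fgfr3-iCreER driver, with tamoxifen on days 30 and 31. The remaining 42 cells came at postnatal day 60 from Fgfr3-Atoh1-Ikzf2-DTR mice, in which the same driver switched on Atoh1, Ikzf2 and Tdtomato in SCs after tamoxifen on days 30 and 31, and in which diphtheria toxin (20 ng/g) on day 36 damaged the OHCs through a toxin receptor placed at Slc26a5. The study had sorted these 42 Tdtomato+ cells by the hair cell (HC) gene Myo7a and by Slc26a5 into 11 OHC-like cells (both genes), 16 nascent HCs (Myo7a without Slc26a5) and 15 SCs failing to become HCs (neither), so neither sorting gene is a finding between them. The labels name no sequencing batch. The library identifiers were split here into 7 blocks, 1 for each wild-type group and 5, called A to E here, for the induced cells. The library numbers run on from block A through block D, and those of block E lie next to those of the WT_P30 OHCs. Closeness of numbers alone therefore does not set these borders, and the labels do not say what the blocks stand for. Cell type, age and block cannot be told apart between the wild-type groups. In the comparisons of induced cells with WT_P60 SCs, which had tamoxifen on the same days, the transgenes, the toxin and the block cannot be told apart. Between induced cells and WT_P30 OHCs, the cell of origin, age, driver, tamoxifen days, transgenes, toxin and block all differ and cannot be told apart.

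OHCs receive their main efferent input from cholinergic neurons of the brainstem. Acetylcholine opens a nicotinic receptor built from the α9 subunit (Chrna9) and the α10 subunit (Chrna10), calcium enters through it, and the calcium opens the small-conductance potassium channel SK2 (Kcnn2), so that the cell is inhibited. Rapsn encodes rapsyn, the scaffold that clusters nicotinic receptors at the nerve-muscle synapse and that can also bind hair cell receptors, and Musk encodes the muscle-specific kinase that starts such clustering in muscle.

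The annotation (GRCm38, GENCODE M21) placed Chrna9 (ENSMUSG00000029205.12) on chromosome 5 from 65934921 to 65977326 on the plus strand and Chrna10 (ENSMUSG00000066279.3) on chromosome 7 from 102111266 to 102116828 on the minus strand. Rapsn (ENSMUSG00000002104.11) lay on chromosome 2 from 91035620 to 91045729 and Musk (ENSMUSG00000057280.15) on chromosome 4 from 58285960 to 58374303, both on the plus strand. Exons of Chrna10, Kcnn2 and Rapsn overlapped exons of genes on the other strand, whereas those of Chrna9 and Musk overlapped no other gene. The bases upstream of both receptor subunits are shown because the subunits parted ways in the induced cells, and because Atoh1 belongs to the basic helix-loop-helix factors, which bind the E-box CANNTG. Both stretches come from RefSeq (GRCm38.p6), run 5′ to 3′ on the strand of the gene and hold no annotated exon base, with each CANNTG in capitals. The stretch of Chrna9 ends at the base before the RefSeq start and lies in an intron of longer GENCODE transcripts that begin further upstream, whereas that of Chrna10 lies outside the gene.
Chrna9, chr5:65966874-65967123, plus strand: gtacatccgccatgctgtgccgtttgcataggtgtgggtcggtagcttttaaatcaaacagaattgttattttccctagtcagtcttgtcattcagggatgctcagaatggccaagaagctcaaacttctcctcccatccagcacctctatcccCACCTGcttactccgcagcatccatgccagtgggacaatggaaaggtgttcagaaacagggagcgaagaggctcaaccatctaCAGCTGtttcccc
Chrna10, chr7:102116829-102116963, minus strand: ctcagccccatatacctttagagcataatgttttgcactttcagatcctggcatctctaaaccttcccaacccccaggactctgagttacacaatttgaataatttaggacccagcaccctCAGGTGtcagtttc
The 250 bases before the RefSeq start of Chrna9 held 2 E-boxes, which begin 96 and 13 bases before it. The 135 bases of Chrna10, which span 250 to 116 bases before its RefSeq start, held 1, which begins 129 bases before that start. CANNTG is its own reverse complement, so a search of 1 strand covers both. A CANNTG stood in 66.2% of the 32851 promoter windows of 250 bases and in 45.6% of windows cut to the 135 bases. These matches are descriptions of the letters, and binding was not measured.

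The count table held between 4264780 and 22934062 reads per cell. Group medians lay between 5967735 (WT_P30 OHCs) and 11377686 (nascent HCs). Counts were scaled to library size, as CPM (counts per 1e+06 reads), with the trimmed mean of M-values, and a gene was called detected at 1 CPM or more of the unscaled library. 3 counts, taken as the floor, corresponded to between 0.147 and 0.838 CPM. The OHC markers Slc26a5, Ocm and Myo7a summed to between 10822 and 41632 CPM in WT_P30 OHCs and to at most 0.307 CPM in WT_P60 SCs. Of the markers of other cells, the inner hair cell gene Otof was detected in 14 of 17 WT_P30 OHCs (mean 434 CPM), with the other inner hair cell marker, Slc17a8, in 2, and the synaptic gene Snap25, listed as a neuron marker, was detected in 16 of 17. Their part in the results was not tested. Among the 16 nascent HCs, 3 cells held Slc26a5 at 1 CPM or more although that group was sorted as lacking it, and among the 15 SCs failing to become HCs, sorted as lacking both genes, cells 2, 15 and 7 held Myo7a at 28.1, 18.4 and 2.24 CPM and cell 2 held Slc26a5 at 1.16 CPM. In the fit over all genes, 11443 genes passed the filter on low counts, and 4 of the 5 genes were among them. Musk did not pass, and Chrna10 passed through the WT_P30 OHCs, so that some difference involving that group was built into its selection. Rapsn, with no count in those OHCs, passed through the other groups, so that the same holds for its differences from OHCs. Chrna9, with at most 3 counts in any SC, passed through the hair cell groups, and the same holds for its differences from SCs. A gene was called at an adjusted p under 0.001 with a log2 fold change beyond 2, in the quasi-likelihood test of edgeR, adjusted after Benjamini and Hochberg.

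Chrna9 lay within or above the range of adult OHCs in most induced HCs and at or under the floor in every SC. In the 17 WT_P30 OHCs its lowest level was 30.4 CPM, its median 588 CPM and its highest 1044 CPM, with a mean of 598 ± 307 CPM (SD, n = 17). In the 11 OHC-like cells it ran from 0 through a median of 683 to 1853 CPM, with a mean of 732 ± 525 CPM (SD, n = 11). In the 16 nascent HCs it ran from 0 through a median of 791 to 2194 CPM, with a mean of 772 ± 717 CPM (SD, n = 16). The induced cells thus spread wider than the OHCs, and 8 of the 27 induced HCs lay above the highest WT_P30 OHC, while 7 OHC-like cells and 6 nascent HCs lay within the OHC range. OHC-like cell 4 held 10.6 CPM, under that range, and had the fewest genes detected of all cells (3348). No count of Chrna9 was found in any of the 16 WT_P60 SCs, and the 15 SCs failing to become HCs held at most 3 counts, in 2 cells. Detection was 17 of 17 WT_P30 OHCs, 10 of 11 OHC-like cells (90.9%, 95% Clopper-Pearson interval 58.7 to 99.8%) and 12 of 16 nascent HCs (75%, 47.6 to 92.7%). The 0 of 16 WT_P60 SCs allowed a share of up to 20.6% and the 0 of 15 SCs failing to become HCs up to 21.8% by the same method, for counting error only.

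**Figure D1:**
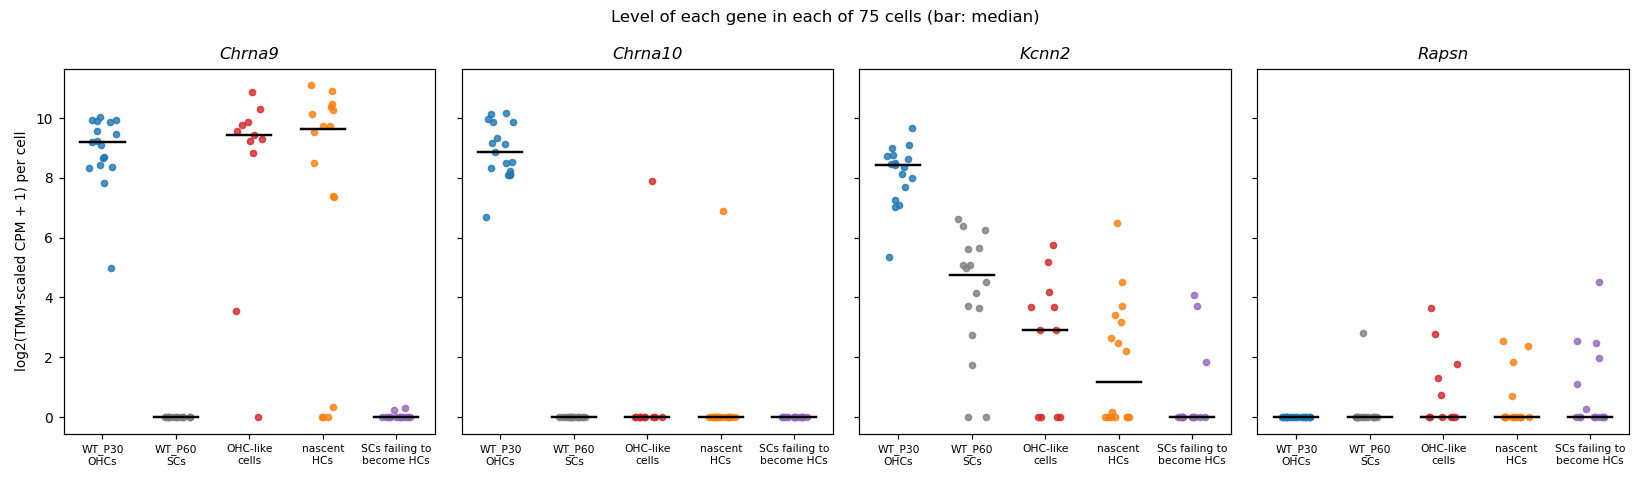
Level of Chrna9, Chrna10, Kcnn2 and Rapsn in each of the 75 cells, as log2(TMM-scaled CPM + 1) on the vertical axis with the 5 groups on the horizontal axis; each point is a cell and each bar the group median. Chrna9 is high in 17 of 17 OHCs, 10 of 11 OHC-like cells (at 10.6 CPM in 1 of them) and 12 of 16 nascent HCs, whereas Chrna10 is high in the OHCs and in 1 cell of each induced HC group.

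Against the floor of 3 counts, Chrna9 was at least 1419-fold higher in WT_P30 OHCs than in WT_P60 SCs, and it was called there (edgeR adjusted p = 3.94e-14). It was at least 1738-fold higher in the OHC-like cells (edgeR adjusted p = 1.19e-13) and at least 1834-fold higher in the nascent HCs (edgeR adjusted p = 1.01e-13) than in WT_P60 SCs. Against SCs failing to become HCs, which carried the same transgenes, it was at least 1754-fold higher in the OHC-like cells (edgeR adjusted p = 1.12e-11) and at least 1851-fold higher in the nascent HCs (edgeR adjusted p = 7.09e-12). These 5 calls stood in every one of the alternative settings in which Chrna9 passed the filter. With only the 2 groups compared, it did not pass for OHC-like cells or nascent HCs against either SC group. Chrna9 entered the fit through the hair cell groups, so that some difference from SCs was built into these calls.

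Between OHC-like cells and WT_P30 OHCs the log2 fold change of Chrna9 was 0.29 with a standard error (SE) of 0.82 (edgeR adjusted p = 0.903). Between nascent HCs and WT_P30 OHCs it was 0.36 with an SE of 0.74 (edgeR adjusted p = 0.849), and between OHC-like cells and nascent HCs it was -0.08 with an SE of 0.84. None of the 3 differences was larger than its SE, and their sign depended on the setting: against WT_P30 OHCs, DESeq2 gave -0.28 for OHC-like cells and -0.23 for nascent HCs. These values were not a test that the levels were alike. The median log2 fold change over all 11443 genes was 0.61 for OHC-like cells and 0.57 for nascent HCs against WT_P30 OHCs. Chrna9 lay below that shift in both comparisons by less than its SE, so that no difference from the shift can be read.

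The induced HCs without Chrna9 were few. They were 1 OHC-like cell and 4 nascent HCs, with 7384627 to 18322036 reads and 6856 to 8701 genes at 1 CPM or more. OHC-like cell 1 lay under its group median of 9209094 reads. Against the nascent median of 11377686 reads, nascent HCs 3 and 16 lay under it and nascent HCs 7 and 13 above it. Nascent HC 13 had the fewest genes detected of its group (6856). The part of depth was not tested. OHC-like cell 1 and nascent HC 3 were the only cells of their groups in identifier block A, nascent HCs 7, 13 and 16 came from blocks B, D and E, and every other induced HC of blocks B to E held Chrna9. In OHC-like cell 1 Myo7a stood at 50.3 CPM, the lowest level of its group. In nascent HCs 7, 3 and 13 Myo7a stood at 93.8, 116 and 161 CPM, the lowest 3 of that group, and in nascent HC 16 it was rank 5 from the lowest at 328 CPM. Atoh1 was the lowest of its group in OHC-like cell 1 (788 CPM) and nascent HC 3 (1356 CPM) but the highest of its group in nascent HC 13 (16062 CPM). Over the 27 induced HCs, Chrna9 and Myo7a correlated with Pearson's r = 0.60 and Spearman's rho = 0.49 on the log2(CPM + 1) scale, and over the 16 nascent HCs with r = 0.83 and rho = 0.70. The corresponding values over the 27 cells for Chrna9 were r = 0.45 (rho = 0.41) with Ocm, the calcium buffer oncomodulin of OHCs, r = 0.34 (rho = 0.27) with Atoh1 and r = -0.38 (rho = -0.52) with Ikzf2, for which transgene and endogenous reads were not separated. These are descriptions of cells that share identifier blocks and the sort on Myo7a and may share mice.

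Chrna10, the partner subunit, was present in every adult OHC and in only 2 of the 27 induced HCs. In the 17 WT_P30 OHCs it ran from 103 through a median of 468 to 1163 CPM, with a mean of 569 ± 338 CPM (SD, n = 17). Of the OHC-like cells only cell 11 held it, with 2354 reads (240 CPM), and of the nascent HCs only cell 2 held it, with 985 reads (118 CPM). The other 10 OHC-like cells, the other 15 nascent HCs, the 16 WT_P60 SCs and the 15 SCs failing to become HCs held no count. Both cells lay inside the range of the OHCs, close to its lower end. Detection was therefore 1 of 11 OHC-like cells (9.09%, Clopper-Pearson 0.230 to 41.3%) and 1 of 16 nascent HCs (6.25%, 0.158 to 30.2%), against 17 of 17 WT_P30 OHCs (80.5 to 100%).

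The fold changes of Chrna10 in induced HCs rested on those 2 cells. Chrna10 was at least 1351-fold higher in WT_P30 OHCs than in WT_P60 SCs (edgeR adjusted p = 1.58e-06) and at least 1363-fold lower in SCs failing to become HCs than in WT_P30 OHCs (edgeR adjusted p = 2.89e-06). Against WT_P60 SCs it was called higher in OHC-like cells (edgeR adjusted p = 0.000178) and in nascent HCs (edgeR adjusted p = 0.000526). Without OHC-like cell 11, or without nascent HC 2, the log2 fold change of that group against WT_P60 SCs was 0. In limma-trend, where a single high cell weighs less, the differences from WT_P60 SCs were 0.91 (adjusted p = 0.414) and 0.56 (adjusted p = 0.577) on the log2 scale. Against SCs failing to become HCs, Chrna10 gave 10.58 (SE 2.16, edgeR adjusted p = 0.00101) in OHC-like cells and 9.01 (SE 2.03, edgeR adjusted p = 0.00234) in nascent HCs, neither called. The first, close to the threshold, was called in 9 of 18 fits that each left out 1 cell. Between OHC-like cells and nascent HCs it was 1.57 (SE 1.47) and was called only without nascent HC 2 (10.57, edgeR adjusted p = 0.000249).

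Against WT_P30 OHCs, the log2 fold change of Chrna10 was -4.69 with an SE of 1.84 in OHC-like cells (edgeR adjusted p = 0.0674) and -6.26 with an SE of 1.68 in nascent HCs (edgeR adjusted p = 0.0032), neither of them called. Limma-trend called both as lower (2.01% and 2.59% of all genes were), with -10.09 (adjusted p = 1.55e-20) and -10.44 (adjusted p = 3.80e-24). With the replicate number as a block, edgeR called both, at -13.01 (adjusted p = 7.69e-08) and -13.75 (adjusted p = 5.65e-10). That fit called 114 and 201 of 11443 genes lower. In all, 2 of 12 other settings called the OHC-like difference and 3 of 12 the nascent one. Without both Chrna10-bearing cells, edgeR also called both, at -15.20 (adjusted p = 1.59e-10) and -15.20 (adjusted p = 1.88e-12). Without OHC-like cell 11 alone the OHC-like value was -15.20, and without nascent HC 2 alone the nascent value was -15.28. The nascent value was also called without OHC-like cell 11 (-6.13, edgeR adjusted p = 0.000989), close to the threshold.

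**Figure D2:**
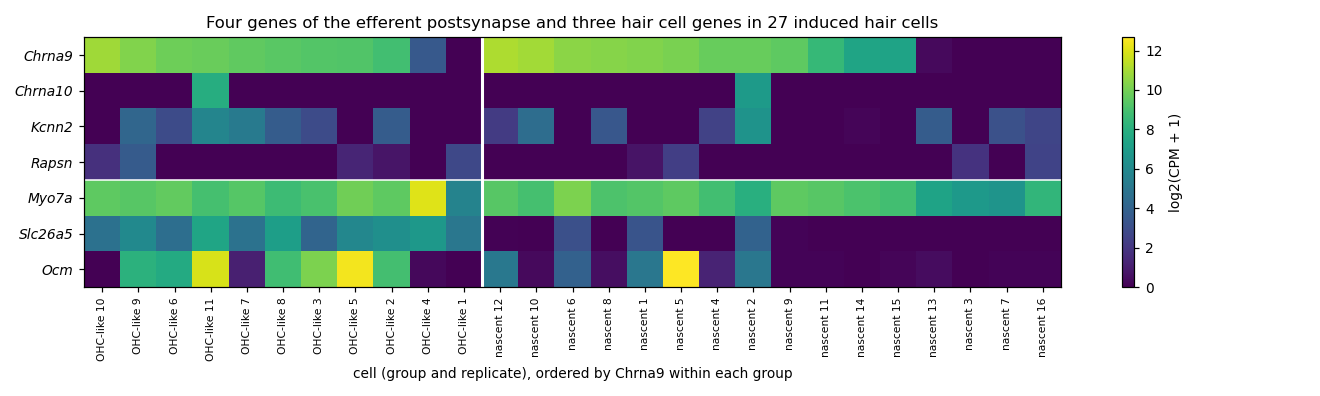
Levels of Chrna9, Chrna10, Kcnn2, Rapsn and of the hair cell genes Myo7a, Slc26a5 and Ocm in the 11 OHC-like cells and 16 nascent HCs, as colour on a log2(CPM + 1) scale; columns are cells ordered by Chrna9 within each group and the white lines part the groups and the gene sets. Chrna10 is seen in OHC-like cell 11 and nascent HC 2, which also hold the highest Kcnn2 and Slc26a5 of their groups.

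The 2 cells with Chrna10 were also the highest of their groups in Kcnn2 and in Slc26a5. OHC-like cell 11 held Kcnn2 at 52.8 CPM, Slc26a5 at 173 CPM and Ocm at 3884 CPM, the last being rank 2 of 11. Nascent HC 2 held Kcnn2 at 89.0 CPM, Slc26a5 at 14.6 CPM and Ocm at 31.9 CPM, the last being rank 4 of 16, and it was 1 of the 3 nascent HCs with Slc26a5. Chrna9 lay mid-range in both, at 872 CPM (rank 4 of 11 from the top) and 848 CPM (rank 8 of 16), and Myo7a was low, at 495 CPM (rank 9 of 11) and 252 CPM (rank 13 of 16). Sox2, an SC gene with no count in any WT_P30 OHC, was the highest of its group in both cells, at 48.7 and 90.5 CPM. Both cells came from identifier block E. They held 9209094 and 7443598 reads, the second being the lowest total among nascent HCs.

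To place these cells, the genes called higher in WT_P30 OHCs than in WT_P60 SCs (568) were narrowed to the 130 detected in all 17 OHCs, Chrna9 and Chrna10 among them. The OHC-like cells held a median of 96 of the 130 genes and the nascent HCs a median of 88. OHC-like cell 11 held 119 and nascent HC 2 held 116, the most of any cell in each group, while the next highest held 101 and 102. Of the 130 genes, 71 (54.6%) were detected in 10 or 11 OHC-like cells, as Chrna9 was, and 16 (12.3%) in at most 1, as Chrna10 was. Of the 14 genes found in at most 2 of the 27 induced HCs, which include Chrna10, OHC-like cell 11 held 7 and nascent HC 2 held 6. The cells were singled out by their Chrna10 counts, so these are descriptions without a test.

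**Figure D3:**
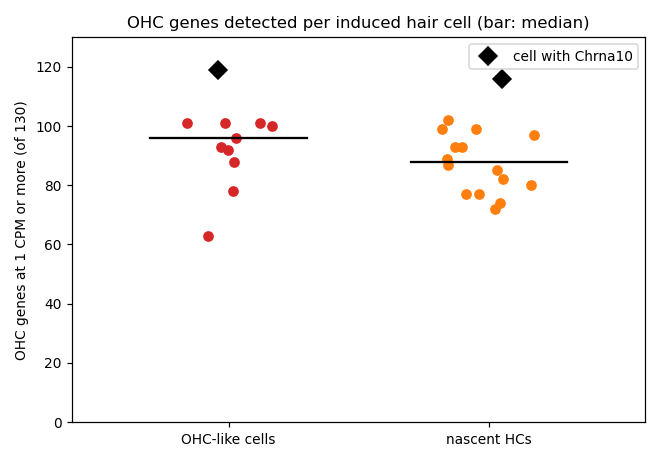
Number of the 130 OHC genes detected at 1 CPM or more (vertical axis) in each OHC-like cell and nascent HC (horizontal axis, by group), with the group medians as bars and the cells holding Chrna10 as black diamonds. The diamonds, at 119 and 116 genes, are the top cell of each group.

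Reads of Chrna10 could also come from Art1, whose exons overlap it on the opposite strand, since this kind of library does not mark strand. Art1 was detected in 17 of 17 WT_P30 OHCs (mean 84.1 CPM), 4 of 11 OHC-like cells, 3 of 16 nascent HCs, 1 of 15 SCs failing to become HCs and no WT_P60 SC. Its part in the counts of Chrna10 was not tested.

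Kcnn2 (ENSMUSG00000054477.16, on chromosome 18), the SK2 channel gene, was high in adult OHCs and low but present in adult SCs, and in both induced HC groups its median lay under that of the adult SCs. In WT_P30 OHCs it ran from 40.0 through a median of 342 to 806 CPM, with a mean of 335 ± 185 CPM (SD, n = 17). In WT_P60 SCs it ran from 0 through a median of 26.2 to 97.2 CPM, with a mean of 32.6 ± 30.7 CPM (SD, n = 16), and 14 of the 16 cells had it. The 2 groups overlapped through a single OHC, which lay under the highest SC. In OHC-like cells it ran from 0 through a median of 6.48 to 52.8 CPM (mean 12.9 ± 17.0 CPM, SD, n = 11) and was detected in 7 of 11 cells. In nascent HCs it ran from 0 through a median of 1.86 to 89.0 CPM (mean 9.65 ± 22.0 CPM, SD, n = 16) and was detected in 8 of 16. In SCs failing to become HCs it ran from 0 through a median of 0 to 15.8 CPM (mean 2.03 ± 4.94 CPM, SD, n = 15) and was detected in 3 of 15. Only 2 of the 27 induced HCs reached the level of the lowest WT_P30 OHC, and they were the same cells that held Chrna10.

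Kcnn2 was called lower than in WT_P30 OHCs in nascent HCs, with a log2 fold change of -5.11 and an SE of 1.24 (edgeR adjusted p = 0.00071), and in SCs failing to become HCs, with -7.33 and an SE of 1.42 (edgeR adjusted p = 2.86e-05). In OHC-like cells the log2 fold change was -4.69 with an SE of 1.43 (edgeR adjusted p = 0.0104), which edgeR did not call, while DESeq2 did (-5.21, adjusted p = 2.93e-05, with 1.98% of all genes called lower). Limma-trend called it too (-6.38, adjusted p = 3.94e-07, with 2.01% of all genes called lower). In all, it was called in 3 of 12 other settings. The call in nascent HCs was lost when nascent HC 1, 3, 5 or 16 was left out, with values between -5.09 and -5.04, and also without the filter on low counts (-4.99, adjusted p = 0.00122) and with the number of genes detected as a covariate (-3.50, adjusted p = 0.453). That number did not overlap between the groups, with 3630 to 5431 genes in WT_P30 OHCs and 6856 to 9045 in nascent HCs. WT_P30 OHCs against WT_P60 SCs gave 3.37 with an SE of 1.14 (edgeR adjusted p = 0.0188), not called in this fit but called in 3 of 12 other settings. Against WT_P60 SCs, the log2 fold change was -1.32 with an SE of 1.21 in OHC-like cells (edgeR adjusted p = 0.668), -1.75 with an SE of 1.08 in nascent HCs (edgeR adjusted p = 0.395) and -3.96 with an SE of 1.21 in SCs failing to become HCs (edgeR adjusted p = 0.0188). None of these 3 was called by edgeR, and limma-trend called the last (-4.89, adjusted p = 5.76e-05).

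Between induced groups, Kcnn2 was 2.64 (SE 1.20, edgeR adjusted p = 0.303) higher on the log2 scale in OHC-like cells and 2.21 (SE 1.12, edgeR adjusted p = 0.468) higher in nascent HCs than in SCs failing to become HCs, and neither was called. With the identifier block as a factor among the 42 induced cells these turned to -4.87 and -5.49, again not called. Block C held 10 of the 15 SCs failing to become HCs, 1 nascent HC and no OHC-like cell, so block and group were largely tied there.

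**Figure D4:**
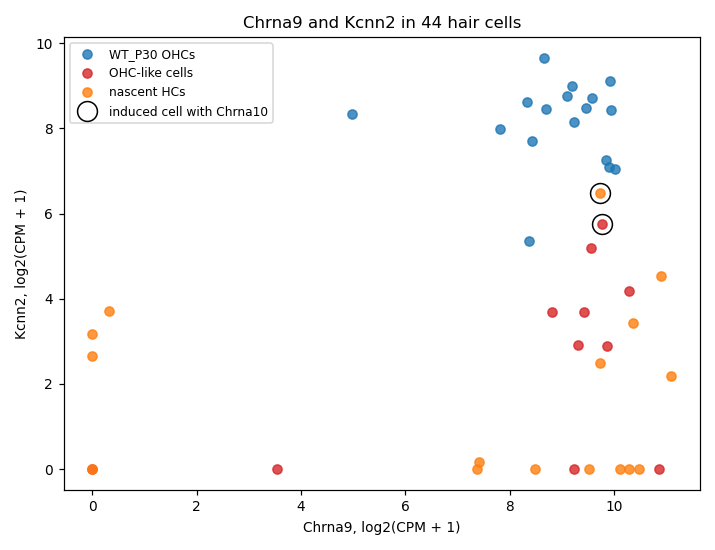
Kcnn2 (vertical axis) against Chrna9 (horizontal axis), both as log2(CPM + 1), in the 17 WT_P30 OHCs, 11 OHC-like cells and 16 nascent HCs; each point is a cell and circles mark the induced cells with Chrna10. Most induced HCs lie within or above the OHC range in Chrna9 but below the lowest OHC in Kcnn2, and the circled cells are the ones nearest to the OHCs.

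Transcripts of the receptor and the channel came together in OHCs and only in part in induced HCs. All 17 WT_P30 OHCs held both subunits and Kcnn2. Of the 11 OHC-like cells, 7 held Chrna9 with Kcnn2, 3 held Chrna9 without Kcnn2 and 1 held neither, and Chrna10 joined in 1 of the 7. Of the 16 nascent HCs, 5 held Chrna9 with Kcnn2, 7 held Chrna9 without Kcnn2, 3 held Kcnn2 without Chrna9 and 1 held neither, and Chrna10 joined in 1 of the 5. The SCs with Kcnn2, 14 of WT_P60 and 3 of those failing to become HCs, held it without Chrna9. No cell of any group held Chrna10 without Chrna9. Within the WT_P30 OHCs the levels of the 3 genes went little with each other: r was -0.01 between Chrna9 and Chrna10, -0.03 between Chrna9 and Kcnn2 and -0.35 between Chrna10 and Kcnn2, over 17 cells of 1 identifier block.

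Per length of transcript, in TPM (the read share per length, scaled to a fixed sum) over exonic lengths of 3026 bases for Chrna9, 2628 for Chrna10 and 7468 for Kcnn2, the mean levels of both subunits in OHCs lay within the spread of each other. Chrna9 had a mean level of 450 ± 210 TPM, Chrna10 of 488 ± 261 TPM and Kcnn2 of 107 ± 65.7 TPM (SD, n = 17 each). The ratio of Chrna9 to Chrna10 in TPM ran from 0.0409 to 3.44 across OHCs with a median of 0.798, and it was above 1 in 7 of 17 cells. In the TPM level, Chrna9 stood at 537 ± 421 in OHC-like cells and 551 ± 499 in nascent HCs, and Kcnn2 at 3.87 ± 5.71 and 3.34 ± 8.83.

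Rapsn, the clustering scaffold, was not detected in adult OHCs and was scarce elsewhere. No count was found in any of the 17 WT_P30 OHCs, which allowed a share of up to 19.5% of cells by the Clopper-Pearson method. It was detected in 1 of 16 WT_P60 SCs (48 reads, 6.04 CPM), 4 of 11 OHC-like cells (at most 11.4 CPM), 3 of 16 nascent HCs (at most 4.78 CPM) and 5 of 15 SCs failing to become HCs (at most 21.8 CPM). Its presence and that of Chrna9 can be set side by side: of the 5 induced HCs without Chrna9, 3 held Rapsn, and of the 22 with Chrna9, 4 held it. Among those 3 were OHC-like cell 1 and nascent HC 3, the only induced HCs of identifier block A. A relation between both genes was not tested. Against WT_P30 OHCs it was at least 4.47-fold higher in the OHC-like cells (edgeR adjusted p = 0.000322), at least 1.71-fold higher in the nascent HCs (edgeR adjusted p = 0.000918) and at least 5.33-fold higher in SCs failing to become HCs (edgeR adjusted p = 0.000161), all 3 called by edgeR, the one in nascent HCs in 8 of 18 fits that each left out 1 cell. None was called by DESeq2 (adjusted p = 0.285, 0.387 and 0.104) or by limma-trend (adjusted p = 0.0328, 0.204 and 0.0398). Against WT_P60 SCs no group was called, with 2.34 (edgeR adjusted p = 0.447) for OHC-like cells, 0.97 (edgeR adjusted p = 0.828) for nascent HCs and 2.59 (edgeR adjusted p = 0.401) for SCs failing to become HCs on the log2 scale. These values rest on the single WT_P60 SC with Rapsn (cell 4): without it OHC-like cells passed the test against WT_P60 SCs, at 7.11 (edgeR adjusted p = 0.000983). WT_P30 OHCs against WT_P60 SCs, at -4.77 (edgeR adjusted p = 0.00259), were not called and became 0 without that cell. Its exons overlap Gm13778 on the opposite strand, which was detected in 3 OHC-like cells, 3 nascent HCs, 3 WT_P60 SCs and 1 SC failing to become HCs, and whose part in these counts was not tested.

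Musk had no read in any of the 75 cells. The absence allowed a share of up to 19.5% of WT_P30 OHCs and up to 28.5% of OHC-like cells by the Clopper-Pearson method, for counting error only.

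Over all genes tested, 15.3% were called in either direction between WT_P30 OHCs and WT_P60 SCs. Against WT_P60 SCs the share was 6.42% for OHC-like cells and 7.77% for nascent HCs, and against WT_P30 OHCs it was 10.6% for OHC-like cells, 13.2% for nascent HCs and 14.7% for SCs failing to become HCs. Of the 4 genes of the synapse that could be called, WT_P30 OHCs against WT_P60 SCs had 2 called, both higher, where 4.96% of all genes tested were called higher. OHC-like cells against WT_P60 SCs had 2 called higher (background 5.77%), and nascent HCs against WT_P60 SCs 2 called higher (background 6.31%), with Chrna9 and Chrna10 in each case. SCs failing to become HCs against WT_P60 SCs had 0 called by edgeR, where 4.17% of genes were called in either direction. There limma-trend called 1, Kcnn2 (background 3.81%), DESeq2 called 0 (background 8.31%), and 1 of the 4, Kcnn2, had an unadjusted edgeR p under 0.05 (p = 0.00158). Against WT_P30 OHCs, the OHC-like cells had 1 called (Rapsn, higher, background 10.0%) and the nascent HCs 2 (Rapsn higher, background 11.8%, and Kcnn2 lower, background 1.42%). The SCs failing to become HCs had 4 called, 3 of them lower (background 2.53%) and Rapsn higher (background 12.2%). OHC-like cells against nascent HCs had 0 called by edgeR, limma-trend or DESeq2, where these called 0.0787%, 0.00874% and 1.44% of all genes in either direction, and 0 of the 4 had an unadjusted edgeR p under 0.05 (the lowest was 0.292). Chrna9 alone was called between SCs failing to become HCs and the OHC-like cells (background 0.979% higher, 1.03% in either direction) or the nascent HCs (background 0.944% higher, 1.35% in either direction). Comparisons that share a control group are not independent of each other. The genes were chosen with earlier results of these data known, so their counts beside the background are descriptions.

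The other genes of the pathway were read from a list of 59 receptor subunits, assembly and clustering factors, calcium-activated channels, calmodulins, store release channels, breakdown enzymes and receptors for other efferent transmitters. Of these, 27 entered the test and 12 were detected in no cell. WT_P30 OHCs against WT_P60 SCs had 6 higher and 3 lower of the 27, where 4.96% of all genes were called higher and 10.3% lower, with a median log2 fold change of 0 against -0.16 over all genes. OHC-like cells against WT_P60 SCs had 7 higher and 0 lower by edgeR (backgrounds 5.77% and 0.655%), with a median of 0.89 against 0.32 over all genes. OHC-like cells against WT_P30 OHCs had 8 higher and 2 lower (backgrounds 10.0% and 0.577%), with a median of 1.23 against 0.61. A gene with at most 3 reads in all in one of the groups compared passed the filter through the groups that held it, so that a difference was built into its selection. Such genes were Kcnma1, Ryr2, Itpr3, Nacad, Chrm4 and Lypd1, and also Itpr2 and Bche against WT_P30 OHCs and Chrna1 against WT_P60 SCs.

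Calm2, which encodes calmodulin, the calcium sensor that gates SK2, stood at a mean of 6334 CPM in WT_P30 OHCs, 1071 CPM in WT_P60 SCs and 1979 CPM in OHC-like cells. Compared with WT_P60 SCs on the log2 scale, it was called higher in WT_P30 OHCs (2.57, SE 0.32, edgeR adjusted p = 1.18e-09) and was 0.88 (SE 0.34, edgeR adjusted p = 0.0701) higher in OHC-like cells without passing the test.

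Among calcium-activated channels and stores, a pair of OHC genes was not detected in induced HCs. Kcnma1, the large-conductance BK channel, was detected in 13 of 17 WT_P30 OHCs (mean 108 CPM) and in no cell of any other group (at most 3 reads), and it was at least 322-fold lower in OHC-like cells (edgeR adjusted p = 4.21e-05). Ryr2, a ryanodine receptor of intracellular calcium stores, was detected in 10 of 17 WT_P30 OHCs (mean 19.2 CPM), in no OHC-like cell and in no nascent HC, and it was at least 57.2-fold lower in OHC-like cells (edgeR adjusted p = 7.73e-05). Both calls were lost with the number of genes detected as a covariate (adjusted p = 0.0269 for Kcnma1 and 0.108 for Ryr2). Itpr1, Itpr2 and Itpr3 encode inositol trisphosphate receptors, which release calcium from stores. Itpr1, outside the naming rule and chosen after its values were seen, had a mean of 235 CPM in WT_P60 SCs, 52.3 CPM in OHC-like cells and 7.10 CPM in WT_P30 OHCs. Itpr2 had no count in the 17 WT_P30 OHCs, stood at a mean of 189 CPM in WT_P60 SCs and 91.1 CPM in OHC-like cells, and was at least 205-fold higher in the OHC-like cells than in WT_P30 OHCs (edgeR adjusted p = 3.62e-11). Itpr3 was detected in 10 of 11 OHC-like cells (mean 362 CPM) and 12 of 16 nascent HCs (mean 221 CPM) but in no WT_P30 OHC and no WT_P60 SC (edgeR adjusted p = 1.47e-07 against WT_P30 OHCs and 3.64e-07 against WT_P60 SCs).

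**Figure D5:**
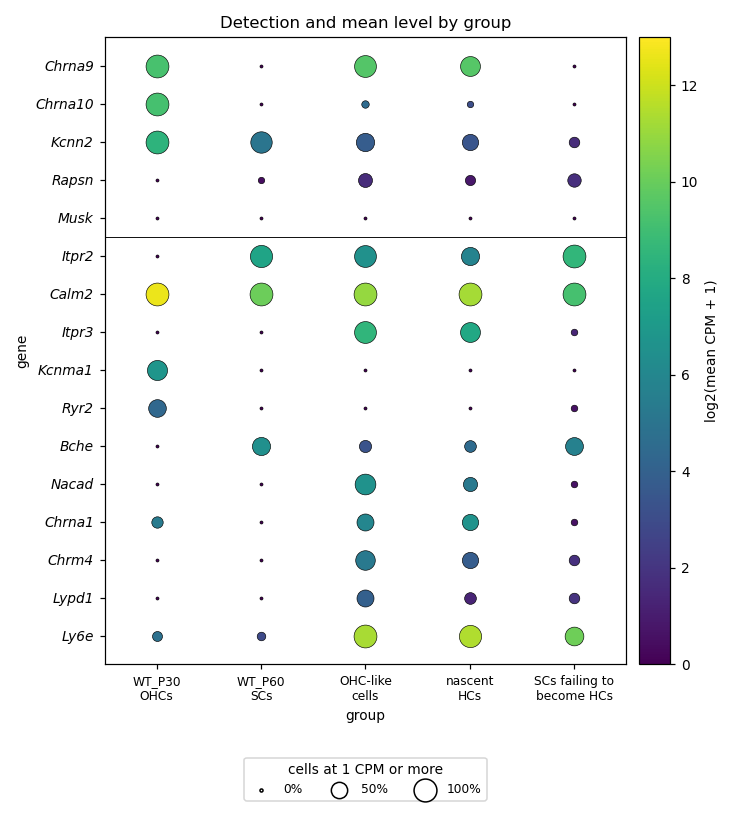
Share of cells with the gene at 1 CPM or more (circle size) and mean level (colour, log2 of mean CPM + 1) for the 5 genes, above the line, and 11 related genes, below it, in the 5 groups on the horizontal axis. Itpr3, Nacad, Chrm4 and Ly6e are seen mainly in the induced cells, whereas Kcnma1 and Ryr2 stand almost alone in WT_P30 OHCs.

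Among other acetylcholine receptors, Chrna1, the α1 subunit of the muscle-type receptor, was detected in 4 of 17 WT_P30 OHCs, 0 of 16 WT_P60 SCs, 6 of 11 OHC-like cells (mean 61.7 CPM) and 8 of 16 nascent HCs (mean 102 CPM), and it was at least 146-fold higher in the OHC-like cells than in WT_P60 SCs (edgeR adjusted p = 5.87e-05, not called by limma-trend with adjusted p = 0.00258). The muscarinic receptor gene Chrm4 was detected in 8 of 11 OHC-like cells (mean 37.0 CPM) and 8 of 16 nascent HCs (mean 12.9 CPM) but in no wild-type cell, and was at least 83.3-fold higher in the OHC-like cells than in WT_P30 OHCs (edgeR adjusted p = 4.21e-05, or 0.0169 with genes detected as a covariate). Chrng, the γ subunit of the fetal muscle receptor, chosen after its values were seen, was detected in 11 of 16 nascent HCs (mean 89.3 CPM), 3 of 11 OHC-like cells and no WT_P30 OHC. Of the 5 markers of skeletal muscle, Ckm, Myog and Des had no count in the nascent HCs. The 5 summed to at most 4.69 CPM in nascent HCs, 26.4 CPM in OHC-like cells, 23.0 CPM in WT_P30 OHCs, 57.9 CPM in WT_P60 SCs and 44.6 CPM in SCs failing to become HCs.

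Of the modulators, Ly6e, a surface protein of the Ly6 family, had a mean of 6.61 CPM in WT_P60 SCs and 2529 CPM in OHC-like cells (log2 fold change 8.57, SE 1.74, edgeR adjusted p = 0.000119), where all 11 cells had it, and stood at 1138 CPM in SCs failing to become HCs. Lypd1, a further Ly6 protein, was detected in 6 of 11 OHC-like cells (mean 14.1 CPM) and in no wild-type cell (edgeR adjusted p = 0.000118 against WT_P30 OHCs, a call lost with genes detected as a covariate, adjusted p = 0.181, and with the replicate number as a block, adjusted p = 0.00485). Nacad, a gene of the nascent polypeptide-associated complex family, was detected in 9 of 11 OHC-like cells (mean 96.8 CPM) and in no wild-type cell (edgeR adjusted p = 1.62e-05 against WT_P30 OHCs). It had been listed with the receptor assembly factors, but a part of Nacad in receptor assembly was not tested. The counts of called pathway genes in OHC-like cells given above include it. Bche, butyrylcholinesterase, which breaks down acetylcholine and related esters, was detected in 10 of 16 WT_P60 SCs (mean 89.0 CPM) and no WT_P30 OHC (edgeR adjusted p = 7.34e-06), and in 3 of 11 OHC-like cells.

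Few reads came from genes of the efferent neurons themselves. Slc18a3 and Th had no count in any of the 75 cells, Chat had at most 2 reads, and Slc5a7 was detected in 1 OHC-like cell only. Calca, a neuropeptide gene of efferent fibres, was detected in 1 WT_P30 OHC, 2 OHC-like cells and 1 nascent HC. The 5 efferent markers summed to at most 163 CPM in WT_P30 OHCs, 0 in WT_P60 SCs, 309 CPM in OHC-like cells, 42.9 CPM in nascent HCs and 0.695 CPM in SCs failing to become HCs. Among markers of other cells, Mbp, a myelin gene, was detected in 9 of 11 OHC-like cells and 11 of 16 nascent HCs but in 2 of 15 SCs failing to become HCs and in no wild-type cell. Its part in the results was not tested.

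By likeness of pattern over the 75 cells, the genes nearest to Chrna9 included Lhfpl5 (Pearson's r = 0.90) and Dner (0.88), each detected in 17 of 17 WT_P30 OHCs and in 9 or 10 of 11 OHC-like cells. The genes nearest to Chrna10 were Grxcr2, Defb25 and Pcp4 (each r = 0.99), which were detected in 17 of 17 WT_P30 OHCs and in 1 OHC-like cell each. The same 3 genes were nearest to Kcnn2 (r = 0.79, 0.78 and 0.78), followed by Chrna10 at 0.77. Chrna9 and Chrna10 correlated at 0.52. Igfbp2, Plch1 and A230057D06Rik (r = 0.59, 0.57 and 0.54) were nearest to Rapsn. Within the 42 induced cells, Chrna9 lay nearest to Galnt14 (0.92), Ubxn11 (0.89) and Cbfa2t3 (0.89), and Kcnn2 to Hs3st3b1 (0.72), Pdlim4 (0.70) and Shisal1 (0.68). Rapsn lay nearest there to Gm11263 (0.58), Igfbp2 (0.57) and Lrp12 (0.56). For Chrna10 the nearest genes there included Kif28 and Plscr5 (each r = 1.00), each of which was found in 1 OHC-like cell and 1 nascent HC, so that these values rest on 2 cells. All of these are descriptions over cells that share groups and identifier blocks.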

How the data were processed

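Adult mouse cochlear cells were picked by hand, amplified with the Smart-Seq HT kit and tagmented. According to the submitters' processing notes, reads were handled with Trimmomatic 0.39, FastQC 0.11.9, HISAT2 2.1.0, HTSeq 0.10.0 and StringTie 1.3.5 on mm10, and the deposited table holds raw read counts per gene for 75 cells, without normalization; the strand setting of counting was not given in the sources used here. The WPRE row (0.0254% of counts), no mouse gene, was left out. Cells were the units, since the labels name no mice: p-values measure the spread between cells, which may share animals and library preparation.

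TMM factors, a filter at a minimum count of 10 and quasi-likelihood F-tests came from edgeR 4.0.16 (R 4.3.3), with all 5 groups in 1 fit, 10 comparisons and Benjamini-Hochberg adjustment over 11443 genes. DESeq2 1.42.0 and limma 3.58.1 (prior count 2) were alternatives among 13 planned, and the edgeR fit was tested on simulated data. TPM used GENCODE M21 exon unions of 53292 genes. Intervals and floors cover counting error only. The members and lists were chosen with earlier results of these data known. Named from the pathway list were the 12 called genes with the smallest adjusted p in WT_P30 OHCs against WT_P60 SCs or in OHC-like cells against either; genes withheld from the text are not reported here. The nearest genes were the top 3 by Pearson's r of log2(CPM + 1). Promoters came from RefSeq, which gave 3 of the 5 genes; only the 2 subunits' were used here.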

Additional observations from a re-analysis of the deposited data

How the results depend on the processing

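Among the fold changes of the tested genes of the synapse under the other settings, 395 kept direction and side of the threshold, 19 newly passed it, 23 no longer did and 19 changed sign; the cause was not tested, except where stated. The count of the 5 genes called stayed within 1.5 times in all settings for SCs failing to become HCs against WT_P30 OHCs and for OHC-like cells against nascent HCs, unless a cell was left out. With only the 2 groups compared, Rapsn never passed the filter, and Chrna9 did not in 5 comparisons, so that fewer genes were tested: 0 genes were called in OHC-like cells or nascent HCs against WT_P60 SCs, 0 in either against SCs failing to become HCs, 0 in OHC-like cells against WT_P30 OHCs and 1 in nascent HCs against them. Limma-trend called 1 in each of the 3 induced groups against WT_P60 SCs and 2 in OHC-like cells against WT_P30 OHCs. Genes detected as a covariate gave 1, 1, 0 and 0 for OHC-like cells and nascent HCs against WT_P60 SCs and then against WT_P30 OHCs. Without both Chrna10-bearing cells, an alternative added after seeing the data, these were 1, 1 and, for OHC-like cells against WT_P30 OHCs, 2. At the looser thresholds (adjusted p 0.05, log2 fold change 1) the counts rose to 4 (WT_P30 OHCs against WT_P60 SCs), 1 (SCs failing to become HCs against WT_P60 SCs) and 2 (OHC-like cells against WT_P30 OHCs, and both induced HC groups against SCs failing to become HCs). DESeq2 gave 2 for the last pair. Nascent HCs against WT_P30 OHCs had 1 under DESeq2, DESeq2 size factors in edgeR, library size only, thinning to the smallest total or leaving out 7 cells of low mapping rate, and 0 without the filter. Thinning gave 0 for OHC-like cells against WT_P30 OHCs and 2 against SCs that failed.

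Replicate numbers did not pair the cells: over 10 comparisons the correlation of same-numbered cells' deviations lay between -0.137 and 0.167, and at most 2 cells in a comparison correlated best with their own number. The replicate block gave 1 gene called in OHC-like cells and in nascent HCs against WT_P60 SCs. It turned Chrna9 to -0.0781 and -0.13 in OHC-like cells and nascent HCs against WT_P30 OHCs, to 0.0565 between both induced HC groups, and Rapsn to 0.13 in OHC-like cells against SCs that failed.

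Chrna9 against WT_P30 OHCs also turned, in OHC-like cells and nascent HCs in that order, to -0.28 and -0.23 (DESeq2, and its size factors in edgeR), -0.88 and -2.16 (limma-trend) and -2.55 and -2.53 (genes detected as a covariate). Between OHC-like cells and nascent HCs it turned to 1.28 (limma-trend), 0.0679 (without OHC-like cell 4) and 0.0548 (identifier block as a factor). Kcnn2 turned, against SCs that failed, to -4.87 (OHC-like cells) and -5.49 (nascent HCs) with the identifier block as a factor. Rapsn in OHC-like cells against SCs that failed turned to 0.19 (limma-trend) and 1.19 (without 7 cells of low mapping rate).

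Leaving out in turn each of the 18 cells outside WT_P30 OHCs that hold Chrna10 or Rapsn, also added, gave counts from 1 to 3 for OHC-like cells and 1 to 2 for nascent HCs against WT_P60 SCs, 1 to 2 and 0 to 3 against WT_P30 OHCs, 0 to 1 between them, and 1 to 2 for either against SCs failing to become HCs. Between OHC-like cells and nascent HCs, Chrna9 ranged from -0.32 to 0.0535, Chrna10 from -9.06 to 10.57 and Kcnn2 from -0.13 to 1.58. Rapsn ranged from -1.23 to 1.01 in OHC-like cells against SCs that failed. Rapsn kept its call in nascent HCs against WT_P30 OHCs in 8 of 18. Depth limits low levels, as of Rapsn and Musk: values under 0.147 to 0.838 CPM, by cell, are within 3 reads.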
